A study of Mus musculus with 6 samples.

Results

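The core genes of the circadian clock were examined in mouse embryonic fibroblasts (MEFs) with and without Rnf40, which encodes a subunit of the ubiquitin ligase that places monoubiquitin on histone H2B. The genes were taken by symbol and comprised Clock, Arntl, Per1, Per2, Per3, Cry1, Cry2, Nr1d1, Nr1d2 and Dbp. All 10 were present among the 29955 genes of the table, and all 10 had enough reads to be among the 16378 genes tested. The MEFs were isolated from embryos in which exons 3 and 4 of Rnf40 were flanked by loxP sites and which carried a tamoxifen-inducible Cre recombinase in the ubiquitously expressed Rosa26 locus. RNA was sequenced from 3 Rnf40+/+ and 3 Rnf40-/- samples at passage 3. Deletion was induced with 250 nM of 4-hydroxytamoxifen for 5 days, and 3 further days of culture without it followed. Whether the Rnf40+/+ cells received the compound is not given in the sources used here, so loss of Rnf40 and exposure to the compound cannot be told apart. Nothing in the labels says that the 3 samples of a genotype came from separate embryos, and the p values therefore measure the spread between these samples, which may be technical. The hour of harvest and the time since the last change of medium are not given either. With 1 time point per sample, a change in the level of a rhythmic transcript and a shift in its phase cannot be told apart.

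The clock is a feedback loop of transcription that runs in most cells of the body, cultured fibroblasts included. CLOCK and BMAL1, the product of Arntl, bind E-boxes as a heterodimer and activate the Per and Cry genes, whose proteins return to the nucleus and inhibit the heterodimer. The same heterodimer activates Nr1d1 and Nr1d2, which encode the nuclear receptors REV-ERB alpha and REV-ERB beta that repress Arntl, and Dbp, which encodes a factor that binds D-boxes in further rhythmic genes. Cells in a dish that has not been synchronized drift out of phase with each other, so that a bulk sample averages over cells at different phases.

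Most genes of the loop were modestly higher in Rnf40-/- MEFs, while Cry1 was lower. Of the 10 genes, 6 rose (Per2, Per1, Nr1d1, Clock, Per3 and Cry2, by 25.3% to 50.2%) and Cry1 fell by 29.6%. The call for Cry1 was not stable, being lost with upper-quartile scaling and when most of the libraries were left out singly. Arntl, Nr1d2 and Dbp did not pass the test. The calls had an adjusted p under 0.05 in limma with Benjamini-Hochberg adjustment over all genes tested. By the same rule 23.3% of all genes tested were higher and 24.1% were lower, beside 60% and 10% of the clock genes. The median log2 difference of the clock genes (Rnf40-/- minus Rnf40+/+) was 0.35, beside -0.0035 over all genes tested. Set against the Rnf40+/+ mean in single libraries, the median of the 10 genes reached 0.34, 0.34 and 0.20 after deletion, above the 0.051, -0.0018 and -0.073 of the single Rnf40+/+ libraries. Since this step centres the Rnf40+/+ libraries, these values show the same difference by library and are no separate support. None of the 10 genes changed by more than 1 on the log2 scale. The study set that minimum together with a mean above 15 and a p value under 0.05. With these cutoffs applied here to the differences and unadjusted p values of limma, 4.25% of all genes tested were higher and 5.7% lower. These shares are not the study's own counts. The libraries of the genotypes did not overlap for 6 clock genes that were higher and for 2 that were lower, against 27.8% and 28.7% of all genes tested.

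**Figure D1:**
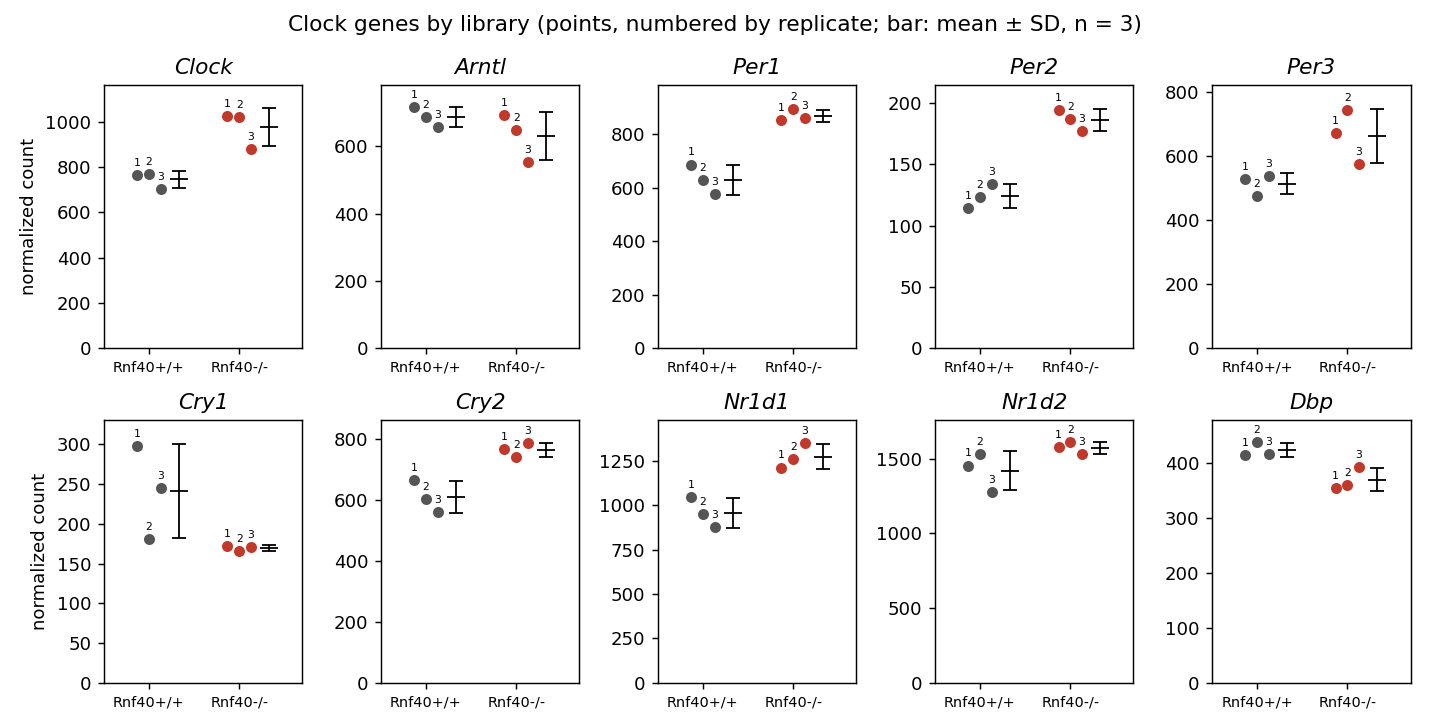
Normalized counts (y axis, from 0) of the 10 clock genes in the 3 Rnf40+/+ libraries (grey) and the 3 Rnf40-/- libraries (red), each point numbered by replicate, with the mean ± SD (n = 3) as a bar beside the points. Every red point lies above every grey point for Clock, Per1, Per2, Per3, Cry2 and Nr1d1 and below every grey point for Cry1 and Dbp, and the grey points of Cry1 have an SD of 58.5 around a mean of 241.

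The stretches before the RefSeq start sites that hold the letters of an E-box, a related E-prime box or a D-box are printed below. Such a stretch was found for 5 genes. Whether these matches are bound or act in these cells was not tested. The sequences are from RefSeq (GRCm38.p6). Each was matched exactly to mm9, at a single place on the given strand of its own chromosome. Other chromosomes were not searched, and the mm9 coordinates are given. Capitals mark the motif, searched on both strands as CACGTG (E-box), CACGTT (E-prime box) and TTATGTAA or TTACGTAA (D-box). An E-prime box on the opposite strand reads AACGTG. The Cry1 stretch lies at chr10:84647814-84647918, the Cry2 stretch at chr2:92274347-92274432, the Nr1d1 stretch at chr11:98636692-98636759 and the Per3 stretch at chr4:150418885-150419019, all read from the minus strand and all outside the annotated gene. The Per1 stretch lies on the plus strand at chr11:68912245-68912330, within an intron of the longer Per1 gene of the GENCODE annotation and before a RefSeq start site.
Per1: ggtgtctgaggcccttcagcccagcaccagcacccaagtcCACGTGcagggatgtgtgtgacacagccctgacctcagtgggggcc
Per3: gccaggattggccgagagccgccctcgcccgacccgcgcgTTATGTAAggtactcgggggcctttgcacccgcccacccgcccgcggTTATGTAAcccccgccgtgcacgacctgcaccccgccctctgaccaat
Cry1: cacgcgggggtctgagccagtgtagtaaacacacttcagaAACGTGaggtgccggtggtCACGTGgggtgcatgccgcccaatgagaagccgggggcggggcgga
Cry2: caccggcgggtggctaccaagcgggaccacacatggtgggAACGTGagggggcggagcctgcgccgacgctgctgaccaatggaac
Nr1d1: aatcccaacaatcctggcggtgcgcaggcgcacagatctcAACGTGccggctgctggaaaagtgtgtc

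A promoter window of 250 bases before and 50 bases after a RefSeq start site was found for 9 of the 10 genes, 13 windows in all, and Per2 had no entry. The E-box was found in 2 of these windows (Per1 and Cry1), and in 7.15% of all 32851 windows. The E-prime box was found in 3 (Cry1, Cry2 and Nr1d1), and in 4.68% of all windows. The D-box was found only in the window of Per3, which holds it at 2 places, and in 1.06% of all windows. A fuller element for the REV-ERB and ROR receptors was found in 1 window, the second of Arntl, and in 2.46% of all windows. The cyclic AMP response element TGACGTCA was in none of the 13 windows and in 1.79% of all windows. The letters say only what is in these windows, and any bearing of these motifs on the changes in level was not tested.

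**Figure D2:**
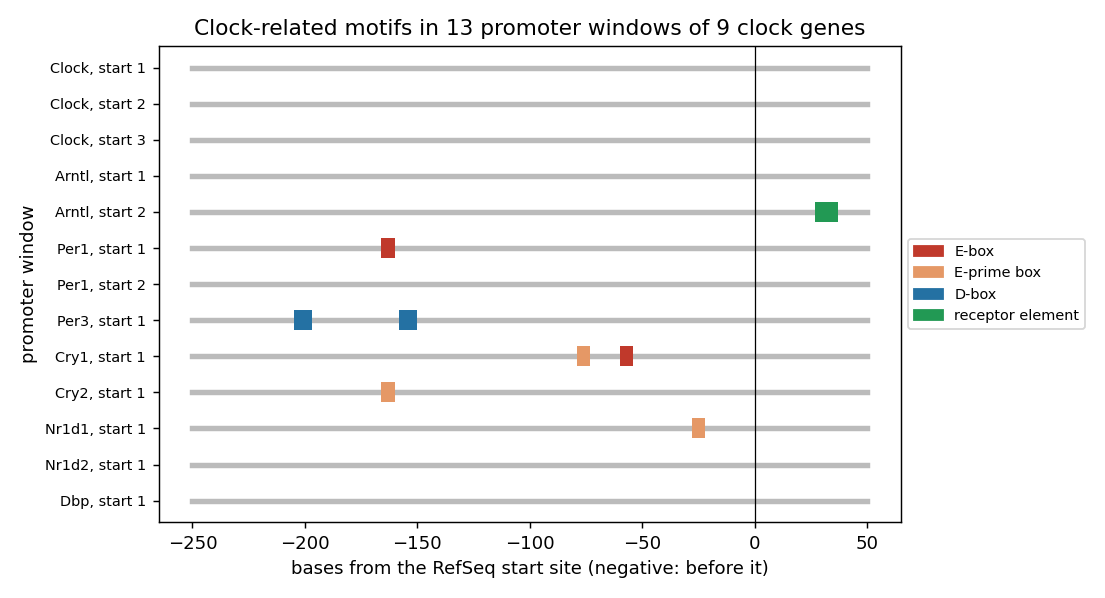
Positions of the motifs (coloured blocks) in the 13 promoter windows of 9 clock genes, with the distance in bases from the RefSeq start site on the x axis and 1 row for each start site. The blocks sit in 6 of the 13 windows, and the Per3 window carries 2 D-boxes.

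Rnf40 itself served as the check of the labels. Its normalized counts were 1278, 1195 and 1096 with the gene intact and 439, 519 and 487 after deletion. The log2 difference was -1.30 (standard error 0.09, adjusted p = 4.25e-07 from limma). The mean fell by 59.5%, so reads on Rnf40 remained in the Rnf40-/- libraries, and their source was not tested. A normalized count is the number of reads on a gene divided by the size factor of its library. The libraries held between 17053436 and 26344170 reads on genes, and Rnf40+/+ replicate 3, the deepest, differed most from the other replicates of its genotype (chi-square per gene 25.6 and 28.3, against 7.85 between replicates 1 and 2). The log2 differences of Rnf40, the clock genes, their overlapping partners and the named genes of the wider clock list were also computed without it. Of the markers fixed for fibroblasts, all 8 were well expressed (means from 1156 to 269198). All 8 fell in Rnf40-/- MEFs, where 24.1% of all genes tested were lower and 23.3% higher. Vim passed only narrowly (adjusted p = 0.0483 from limma), and the marker calls were not repeated in the alternatives listed below. The summed level of the 8 markers was between 668000 and 739000 in Rnf40+/+ and between 399000 and 402000 in Rnf40-/- libraries. The largest part was Fn1, with means of 328300 and 210100. In these bulk samples fewer cells of a type and less RNA per cell cannot be told apart. Macrophage markers were present too, with all 7 at means above 100, of which 1 rose and 3 fell. Their summed level was 5140 to 9360 in Rnf40+/+ and 3240 to 3590 in Rnf40-/- libraries. Most of it was Lyz2, which fell from 5314 ± 1870 to 2264.5 ± 152 normalized counts (SD, n = 3 each). Ptprc rose from 62.6 ± 14.8 to 160.3 ± 9.38. Endothelial markers summed to 46.9 to 143 against 173 to 265, and 3 of 4 rose. Epithelial markers summed to at most 83.6, and skeletal muscle markers to 116 to 432 against 27.1 to 43.4, with the defining gene Myod1 at 0 in every library. The highest endothelial, epithelial and skeletal muscle sums of Rnf40+/+ were all those of replicate 1. Tek stood there at 114.6 (11.2 and 16 in replicates 2 and 3), Krt8 at 58.5 (1.02 and 9.58) and Des at 431.1 (126.5 and 114.2). The part of these shifts in the results for the clock genes was not tested.

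Of the activators, Clock rose and Arntl did not pass the test. Clock (ENSMUSG00000029238, minus strand of chromosome 5 of mm9, 76639992 to 76733817, 23 exons) encodes the DNA-binding partner of BMAL1. It had 764, 772 and 705 normalized counts in Rnf40+/+ and 1029, 1022 and 882 in Rnf40-/- libraries. The lowest Rnf40-/- library was above the highest Rnf40+/+ library, and the mean rose by 30.8%, from 747 ± 36.6 to 977 ± 82.9 (SD, n = 3 each), a log2 difference of 0.39 (standard error 0.08, adjusted p = 0.00256 from limma). Arntl (ENSMUSG00000055116, plus strand of chromosome 7, 120350979 to 120457636, 21 exons) had 717, 688 and 657 normalized counts in Rnf40+/+ and 694, 648 and 553 in Rnf40-/- libraries. The groups overlapped, with means of 687 ± 29.7 and 632 ± 71.9 (SD, n = 3 each). Its log2 difference of -0.13 had a 95% interval from -0.33 to 0.08 and an adjusted p of 0.297 from limma, and the interval held both a modest fall and no change.

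The Period genes, which encode the PER proteins that inhibit CLOCK and BMAL1 together with the CRY proteins, were all higher. Per2 (ENSMUSG00000055866, minus strand of chromosome 1, 93312561 to 93355907, 23 exons) had the largest rise of the 10 genes. Its normalized counts were 115, 123 and 134 in Rnf40+/+ and 195, 187 and 178 in Rnf40-/- libraries. The groups stood well apart, and the mean rose by 50.2%, from 124 ± 9.77 to 186 ± 8.63 (SD, n = 3 each), a log2 difference of 0.59 (standard error 0.13, adjusted p = 0.00333 from limma). Its reads were few, between 96 and 191 per library. Per1 (ENSMUSG00000020893, plus strand of chromosome 11, 68908719 to 68923462, 23 exons), which in many cells is also induced at once by serum and cyclic AMP, had 687, 629 and 575 normalized counts in Rnf40+/+ and 852, 895 and 860.2 in Rnf40-/- libraries. Its mean rose by 37.9%, from 630.3 ± 55.9 to 869 ± 22.9 (SD, n = 3 each), with a log2 difference of 0.47 (standard error 0.08, adjusted p = 0.000707 from limma). Per3 (ENSMUSG00000028957, minus strand of chromosome 4, 150377761 to 150418774, 21 exons), which unlike Per1 and Per2 is largely dispensable for rhythms, had 528, 476 and 537 normalized counts in Rnf40+/+ and 673, 742 and 575 in Rnf40-/- libraries. The rise of 29.2%, from 514 ± 32.6 to 663 ± 83.9 (SD, n = 3 each), was a log2 difference of 0.36 (standard error 0.10, adjusted p = 0.0121 from limma). Rnf40-/- replicate 3 came close to the Rnf40+/+ range. The call for Per3 was lost without Rnf40+/+ replicate 2 (0.31, adjusted p = 0.0539) or Rnf40-/- replicate 2 (0.28, adjusted p = 0.0667), while over all 17 alternatives its adjusted p lay between 0.00473 and 0.0667.

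The cryptochromes, which encode the strongest repressors of the heterodimer, moved in opposite directions. Cry2 (ENSMUSG00000068742, minus strand of chromosome 2, 92243803 to 92274200, 12 exons) had 666, 605 and 563 normalized counts in Rnf40+/+ and 768, 742 and 788 in Rnf40-/- libraries. The mean rose by 25.3%, from 611 ± 52.0 to 766 ± 23.2 (SD, n = 3 each), a log2 difference of 0.33 (standard error 0.09, adjusted p = 0.00703 from limma), and the groups did not overlap. Cry1 (ENSMUSG00000020038, minus strand of chromosome 10, 84594447 to 84647799, 13 exons) had 297, 180.5 and 245 normalized counts in Rnf40+/+ and 172, 166 and 171 in Rnf40-/- libraries. The Rnf40-/- libraries were nearly level and the Rnf40+/+ libraries were scattered, with replicate 2 only just above the Rnf40-/- range. The mean fell by 29.6%, from 241 ± 58.5 to 169.7 ± 3.35 (SD, n = 3 each), a log2 difference of -0.47 (standard error 0.17, adjusted p = 0.0329 from limma). This call was the least stable of the 7. It was lost with upper-quartile scaling (adjusted p = 0.0526) and without any 1 of 5 libraries, with log2 differences of -0.31 without Rnf40+/+ replicate 1 (adjusted p = 0.123), -0.45 without Rnf40+/+ replicate 3 (0.0569), and -0.48, -0.46 and -0.48 without Rnf40-/- replicates 1, 2 and 3 (0.0709, 0.0897 and 0.0758). Without Rnf40+/+ replicate 2 it was -0.67 (adjusted p = 0.00419 from limma).

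The REV-ERB receptors close a second loop by competing with ROR receptors at the Arntl gene. Nr1d1 (ENSMUSG00000020889, minus strand of chromosome 11, 98629246 to 98636647, 8 exons) had 1049, 950.4 and 880.0 normalized counts in Rnf40+/+ and 1213, 1261 and 1349 in Rnf40-/- libraries. Its mean rose by 32.8%, from 959.7 ± 84.6 to 1274 ± 69.0 (SD, n = 3 each), with a log2 difference of 0.41 (standard error 0.08, adjusted p = 0.00139 from limma). Nr1d1 shares 263 exonic bases, 9.67% of its transcript, with Thra on the opposite strand, which encodes thyroid hormone receptor alpha. Thra had 965 ± 57.2 and 552 ± 23.0 normalized counts (SD, n = 3 each) and a log2 difference of -0.81 (adjusted p = 7.25e-06 from limma), opposite in direction to that of Nr1d1. Nr1d2 (ENSMUSG00000021775, minus strand of chromosome 14, 19036568 to 19071641, 8 exons) had 1455, 1532 and 1277 normalized counts in Rnf40+/+ and 1576, 1612 and 1531 in Rnf40-/- libraries. The means were 1421 ± 131 and 1573 ± 40.6 (SD, n = 3 each), the groups touched at their edges, and the log2 difference of 0.15 (95% interval -0.02 to 0.32, adjusted p = 0.131 from limma) did not pass the test.

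Dbp (ENSMUSG00000059824, plus strand of chromosome 7, 52960458 to 52965525, 4 exons), a direct output of the loop that shows some of the widest daily swings of any transcript, did not pass the test. It had 414, 438 and 417 normalized counts in Rnf40+/+ and 354, 360.1 and 393 in Rnf40-/- libraries. Every Rnf40-/- library was below every Rnf40+/+ library, with means of 423 ± 13.3 and 369 ± 20.9 (SD, n = 3 each), but the log2 difference of -0.20 (standard error 0.09, 95% interval -0.40 to 0.001) had an adjusted p of 0.0944 from limma. The annotated Dbp transcript shares 491 exonic bases, 27.4% of its length, with Sphk2 on the opposite strand, which encodes a sphingosine kinase and was itself lower (log2 difference -0.30, adjusted p = 0.0166 from limma), a call lost without Rnf40-/- replicates 1 (-0.28, adjusted p = 0.0609) or 2 (-0.25, adjusted p = 0.0751). The kit marks the strand of the RNA, but whether the reads were counted by strand is not given in the sources used here, and without strand the reads of such partners cannot be told apart. Cry2 likewise shares 295 bases (7.42%) with a long noncoding RNA on the opposite strand that has no row under its symbol.

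**Figure D3:**
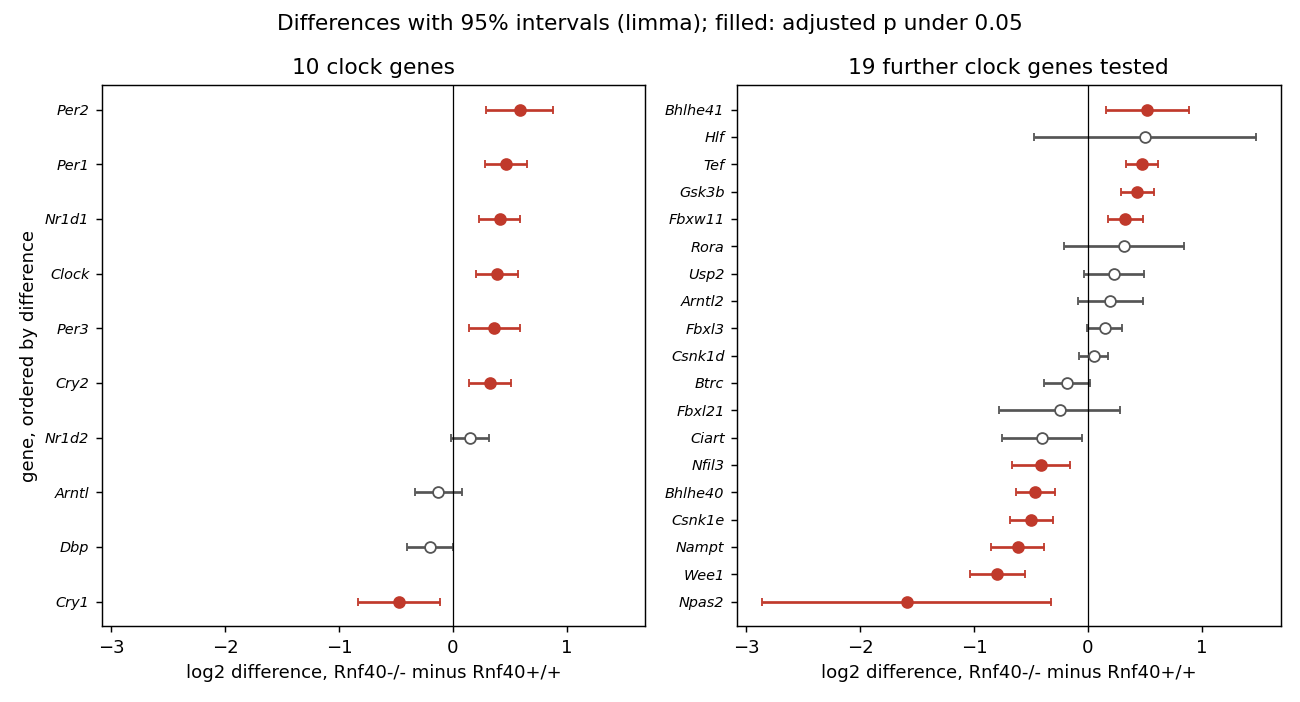
Log2 difference (x axis, Rnf40-/- minus Rnf40+/+, log2 of normalized count + 1) with its 95% interval from limma for the 10 clock genes (left) and the 19 further clock genes tested (right), filled where the adjusted p was under 0.05. On the left 6 filled points lie right of 0 and Cry1 is the filled point left of it, while on the right filled points lie on both sides.

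Compared per kilobase of the longest annotated transcript, the levels of the 10 genes kept much the same order in both genotypes. In Rnf40+/+ MEFs Nr1d1 was highest (353 ± 31.1 normalized counts per kb, SD, n = 3), followed by Nr1d2 (305 ± 28.0), Dbp (237 ± 7.41), Arntl (235 ± 10.1), Cry2 (154 ± 13.1), Per1 (135 ± 12.0), Clock (86.4 ± 4.23), Per3 (85.6 ± 5.44), Cry1 (80.0 ± 19.4) and Per2 (21.3 ± 1.68). The ranges of the libraries overlapped between Nr1d1 and Nr1d2, Dbp and Arntl, Cry2 and Per1, Clock and Per3, and Per3 and Cry1, and these neighbours were not separated beyond their spread. In Rnf40-/- MEFs Nr1d1 (468 ± 25.4) stood apart from Nr1d2 (337 ± 8.69), and Cry1 (56.3 ± 1.12) stood apart from Per3 (111 ± 14). Arntl (216 ± 24.6) and Dbp (206 ± 11.7) exchanged places within overlapping ranges, and Per2 (31.9 ± 1.48) was again the lowest.

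**Figure D4:**
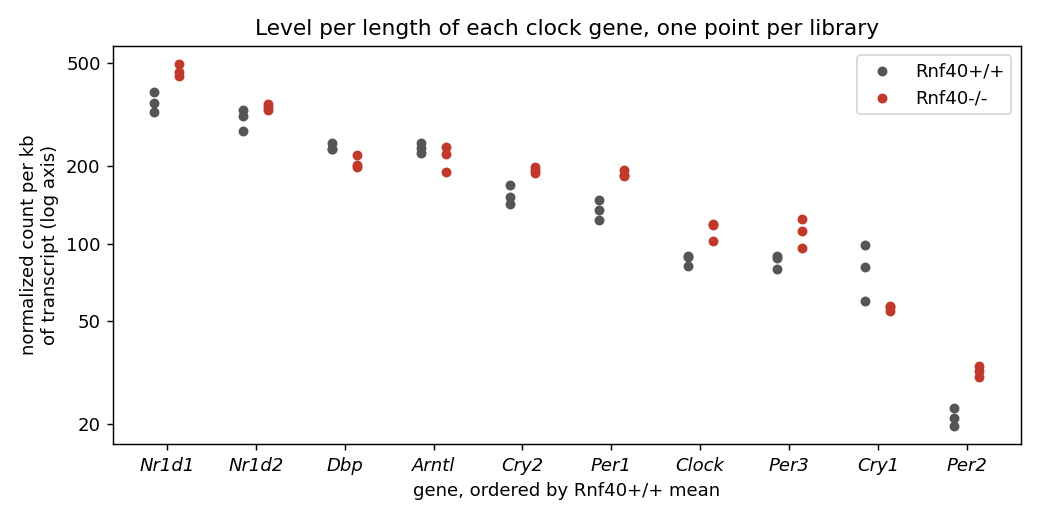
Normalized count per kb of the longest annotated transcript (log y axis) of the 10 clock genes in each Rnf40+/+ (grey) and Rnf40-/- (red) library, ordered by the Rnf40+/+ mean. The order runs from Nr1d1 to Per2 in both genotypes, and the red points sit above the grey ones for 6 genes.

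Ratios between related genes within a library do not depend on how libraries were scaled, apart from the small constant added before the logarithm. The log2 ratio of Cry1 to Cry2 was -1.16, -1.74 and -1.20 in Rnf40+/+ and -2.15, -2.15 and -2.20 in Rnf40-/- libraries, a shift of -0.80 without overlap. For Nr1d1 to Nr1d2 it was -0.47, -0.69 and -0.54 against -0.38, -0.35 and -0.18, a shift of 0.26 without overlap. The ratio of Per1 to Per2 (2.33 ± 0.24 and 2.22 ± 0.08, SD, n = 3 each) and that of Per2 to Per3 (-2.04 ± 0.13 and -1.82 ± 0.15) overlapped between the genotypes. Arntl to its paralog Arntl2 shifted from 2.01 ± 0.08 to 1.68 ± 0.06 (SD, n = 3 each) without overlap. The ratio of Clock to Npas2, a paralog of Clock that can take its place, was 1.62, 4.57 and 3.67 in Rnf40+/+ and 4.98, 5.94 and 4.87 in Rnf40-/- libraries, and most of its spread came from Npas2, whose normalized counts in Rnf40+/+ were 248, 31.6 and 54.3. The ratios are given as a description, with no test.

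**Figure D5:**
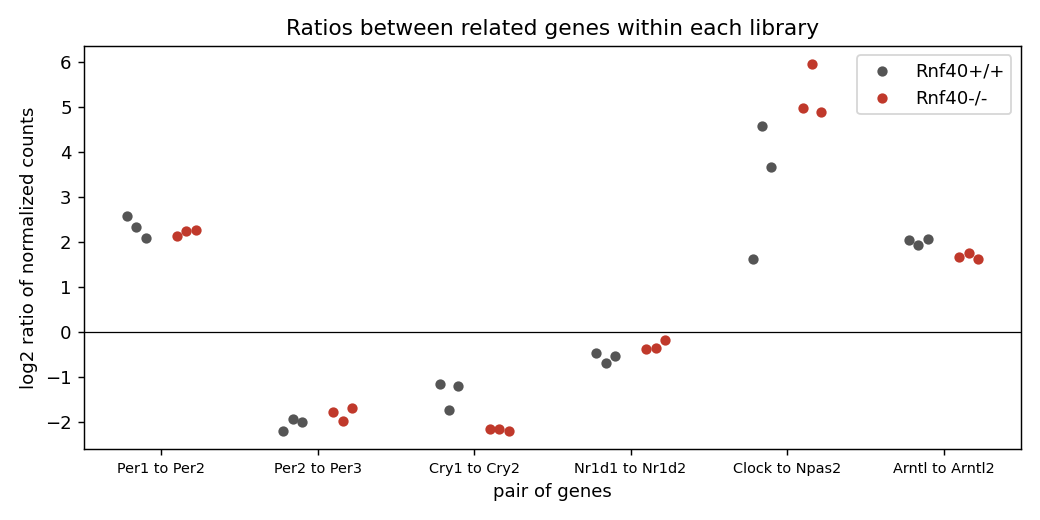
Log2 ratio of normalized counts (y axis) between 6 pairs of related genes in each Rnf40+/+ (grey) and Rnf40-/- (red) library. The ratio of Cry1 to Cry2 is lower in all 3 Rnf40-/- libraries, and the ratio of Clock to Npas2 has the widest spread among the Rnf40+/+ libraries.

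The wider clock list held 21 further genes, of which 19 were tested. Of these, 4 rose and 6 fell (21.1% and 31.6%, beside the 23.3% and 24.1% of all genes tested), and the median log2 difference was 0.052. Among other transcription factors, Tef, a relative of Dbp that binds the same D-box, had 1703 ± 80.9 normalized counts in Rnf40+/+ and rose to 2372 ± 59.5 in Rnf40-/- MEFs (SD, n = 3 each, log2 difference 0.48, adjusted p = 8.58e-05 from limma). Nfil3, a repressor that competes at the D-box, fell from 287 ± 22.9 to 216 ± 19.2 (log2 difference -0.41, adjusted p = 0.0127). That call was lost without Rnf40-/- replicate 2 (-0.34, adjusted p = 0.0568). Both DEC repressors of E-boxes changed, in opposite directions. Bhlhe40 (DEC1) fell from 1038 ± 68.9 to 752 ± 32.2 (log2 difference -0.46, adjusted p = 0.000463), and Bhlhe41 (DEC2) rose from 105 ± 17.0 to 150.3 ± 14.9 (0.52, adjusted p = 0.0211). The call for Bhlhe41 was lost without Rnf40+/+ replicate 3 (0.39, adjusted p = 0.0654) and without Rnf40-/- replicates 1 (0.52, adjusted p = 0.0621) or 2 (0.45, adjusted p = 0.087).

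Among the kinases and ubiquitin ligases that set the stability of PER and CRY proteins, 2 of 7 rose and 1 fell (28.6% and 14.3%, beside the 23.3% and 24.1% of all genes tested). Gsk3b, a kinase, had 2179 ± 124 normalized counts in Rnf40+/+ and rose to 2938 ± 109 in Rnf40-/- MEFs (SD, n = 3 each, log2 difference 0.43, adjusted p = 0.000238 from limma), and Fbxw11, which encodes a subunit of the ligase that recognizes phosphorylated PER, rose from 2518 ± 205 to 3158 ± 55.3 (0.33, adjusted p = 0.00218). Csnk1e, which encodes the PER kinase casein kinase 1 epsilon, fell from 2685 ± 351 to 1892 ± 51.0 (-0.50, adjusted p = 0.000545), whereas its relative Csnk1d had 4191 ± 42.7 and 4345 ± 138 (0.05, 95% interval -0.08 to 0.18). Of the outputs, Wee1, an inhibitor of entry into mitosis, fell by 42.6%, from 381 ± 38.5 to 219 ± 12.7 (-0.79, adjusted p = 0.000115), and Nampt, the rate-limiting enzyme of NAD salvage, fell by 35.3%, from 665 ± 101 to 430.5 ± 7.40 (-0.62, adjusted p = 0.000543). Usp2 had 253 ± 17.7 and 298 ± 37.5 and did not pass the test. The last of the 6 that fell was Npas2, with 31.6, 15.7 and 29.3 normalized counts in Rnf40-/- and a log2 difference of -1.59 (adjusted p = 0.0401 from limma). Its mean rested on Rnf40+/+ replicate 1, without which the log2 difference was -0.74 (adjusted p = 0.122). The call was also lost without Rnf40-/- replicates 1, 2 or 3 (adjusted p = 0.0536, 0.153 and 0.0725) and with no filter (0.0553).

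The genes most like Per2 and Cry1, the clock genes with the largest rise and the largest fall, were sought among 11524 genes with a mean of at least 100 outside both clock lists. Over the 6 libraries, Plscr2 (Pearson's r = 0.9986), Gpld1 (0.997) and Brf1 (0.9962) were closest to Per2, and Ost4 (0.9928), Gm5766 (0.9922) and Wdr70 (0.992) to Cry1. The log2 differences of the genes closest to Per2 were 1.32, 0.96 and 0.81, and those of the genes closest to Cry1 were -0.37, -0.68 and -0.1. The likeness is therefore one of pattern and not of size. These correlations are a description, since all points share the same 6 libraries and the 2 genotypes account for much of the spread. The highest of 11524 correlations over 6 libraries can also be high through that selection alone.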

How the data were processed

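Total RNA of 3 Rnf40+/+ and 3 Rnf40-/- MEF samples was made into strand-specific libraries, which the authors mapped to the mouse transcriptome (UCSC mm9) and normalized with DESeq. The submitters' processing notes name Bowtie2 (version 2.1.0) and DESeq (version 1.14.0), and the counting tool is not given in the sources used here. The deposited signal is therefore reads per gene over a library's size factor. All positive values (100%) were whole multiples, within 0.01, of the lowest one in their library, which gave back the reads (17053436 to 26344170 per library). A gene with 3 reads has a normalized count of 2.40 to 3.58.

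The filter filterByExpr of edgeR (version 4.0.16) left 16378 of 29955 genes. These were tested for genotype with limma (version 3.58.1, trend) on log2(normalized count + 1), with Benjamini-Hochberg adjustment. The added 1 understates the change of low genes. Alternatives were size factors of DESeq2 (version 1.42.0), TMM and upper-quartile scaling, no filter, a mean above 15, a minimum of 10 reads per library, pseudocounts of 0.1 and 10, the edgeR quasi-likelihood test, the DESeq2 Wald test, a replicate block and each library left out. The DESeq2 size factors gave the same calls as the deposited scaling, which was made with DESeq, and are no separate check. Ciart was found in the table under its older symbol. Positions are from the GENCODE annotation of mm9, promoters from RefSeq. R (version 4.3.3) and Python (version 3.11.15) were used.

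The genes named are the 10 clock genes, genes of the wider list with an adjusted p under 0.05 and a mean of at least 100, Rnf40, genes overlapping a clock gene, and the 3 genes most like each of 2 clock genes. Npas2, Arntl2, Csnk1d and Usp2 fall outside this rule and were chosen after their values were seen. So were the markers Vim, Fn1, Lyz2, Ptprc, Tek, Krt8 and Des, and the marker Myod1 was named as a defining gene. The clock genes and lists were chosen with earlier results of these data known. Same-numbered libraries of the genotypes were not paired by the labels, and their deviations from the group means correlated at 0.012, 0.017 and 0.021 over genes.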

Additional observations from a re-analysis of the deposited data

How the results depend on the processing

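The 6 clock genes called higher stayed 6 in every alternative except without Rnf40+/+ replicate 2 or Rnf40-/- replicate 2, where Per3 was lost, so that the count lay between 5 and 6 with each library left out. The count of clock genes called lower, 1 (Cry1), was 0 with upper-quartile scaling in limma, where 1 gene had an unadjusted p under 0.05, and lay between 0 and 1 with each library left out. The counts were 6 and 1 as well by the quasi-likelihood test of edgeR and by the Wald test of DESeq2. No clock gene changed direction in any of the 17 alternatives, and Arntl, Nr1d2 and Dbp passed the test in none of them (adjusted p from 0.166 to 0.794, from 0.0543 to 0.397 and from 0.0824 to 0.256). With a replicate block the counts were again 6 and 1 (4021 genes higher and 4196 lower over all genes, against 3809 and 3955 without it). Since every same-numbered pair correlated below 0.1, the numbers were not taken to pair the samples. In the wider list the block changed no count (4 higher and 6 lower). There the higher count was 5 with upper-quartile scaling or no filter and the lower count 5 with no filter, and with each library left out they lay between 3 and 4 and between 4 and 8 (8 without Rnf40+/+ replicate 3, 4 without Rnf40-/- replicate 2). The largest shift of the median over all genes came with upper-quartile scaling (0.044 on the log2 scale). The lowest read number of a clock gene in any library was 96, for Per2.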
